A study of Homo sapiens with 4 samples.

Results

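The immunoproteasome genes examined here are PSMB8, PSMB9 and PSMB10, which encode the interferon-inducible catalytic subunits of the proteasome core, and PSME1 and PSME2, which encode the alpha and beta chains of the PA28 activator. They were chosen by name, and all 5 were found among the 53617 genes of the deposited tables, with no failed isoform and no second copy on a haplotype. The cells were HT29, a human colon adenocarcinoma line in long use, and RNA of 4 transfected cultures was sequenced, 1 library per group. The groups were cells transfected with a miR-23b precursor (a synthetic RNA that raises the microRNA), cells given the control of the precursor, cells transfected with an antimir (an oligonucleotide that blocks miR-23b), and cells given the control of the antimir. Per the labels, every culture had 5% serum and 90% confluency when it was transfected with Lipofectamine 2000, at a dose given as 50nm and read here as 50 nM. Medium was replaced after 24 h and RNA taken after 48 h, so the controls went through the same lipid transfection. The sequences of the control oligonucleotides were not used here. The series set out to find mRNAs whose level differs when miR-23b is altered.

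The proteasome is the barrel-shaped protease that degrades ubiquitinated proteins, and 3 of its core subunits do the cutting. In cells exposed to interferon, and at steady state in many leukocytes, newly built cores take up PSMB8 (LMP7), PSMB9 (LMP2) and PSMB10 (MECL1) in place of the constitutive PSMB5, PSMB6 and PSMB7. The exchanged core cleaves more often after residues that fit the groove of class I molecules, and the resulting peptides are moved into the endoplasmic reticulum by the transporter TAP1 and TAP2. PA28, a ring of PSME1 and PSME2 chains, caps the core and opens its gate. In colon epithelium these genes are known as inducible genes that follow interferon signalling.

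Levels are given as FPKM, fragments counted per length of transcript and per size of library, summed over the isoforms of a gene. A difference is the treated value of log2(FPKM + 1) minus the control value, centred on the median of all genes with a mean of at least 1 FPKM over both libraries. A difference past 1.5-fold on that scale was counted as higher or lower without any test, because a single library in each group leaves the replicate error unmeasured. The depth of the libraries is unknown, since FPKM carry no counts. The precursor and antimir tables were normalised separately, so each comparison was made within its own table. In RNA from whole cultures, fewer cells of a kind and less RNA per cell cannot be told apart. Of 10 epithelial markers, KRT8 was the highest, between 2346 and 6798 FPKM, and CDX1 the lowest, between 0.319 and 0.689. EPCAM was between 531 and 743 FPKM, and CEACAM5 between 0.785 and 1.78. Of 13 immune and stromal markers 12 were in the tables, and their FPKM summed to 10.3 with the precursor, 8.07 in its control, 8.17 with the antimir and 8.44 in its control. Highest of these markers in each library were CD68, between 4.16 and 5.59 FPKM, and CD14, between 1.74 and 2.76. PTPRC, the pan-leukocyte CD45, was below 0.01 FPKM in each library, and CD3D, MS4A1 and HLA-DRA were listed at 0 in all 4. ITGAM, a myeloid integrin, was the 1 immune or stromal marker past 1.5-fold, at 0.555 FPKM with the antimir against 1.65 (-0.73). MIR23B was listed at 0 in all 4 libraries, so its own entry gives no check of the transfection, and the levels of reported miR-23b targets were not analysed here.

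The sequences below are shown because the start regions of 4 members, and that of TAP1, which starts head to head with PSMB9, hold the same 10 bases. RefSeq promoter windows of GRCh38.p14, from 250 bases before a start to 50 after it, were matched by symbol for all 5 members. The longest run held on either strand by a window of PSMB8, PSMB10, PSME1, PSME2 and TAP1 was GAAAGCGAAA, and this set of genes was chosen after the sequences had been seen. The run is a form of GAAANNGAAA, the core of the interferon-stimulated response element, so the searches overlap. Each site is printed over 30 bases on the strand that reads GAAANNGAAA, with every base of a match in capitals.
PSMB8: aggaggaagtGAAAGCGAAAgccacagatc
PSMB10: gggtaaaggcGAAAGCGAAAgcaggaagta
PSME1: accgcgaaggGAAAGCGAAAgcggtagggc
PSME2: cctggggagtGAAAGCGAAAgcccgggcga
TAP1: agggGAAAGCGAAATCGAAAgcggccgcct
The sites lie at chr6:32844032-32844061 (plus strand as printed) for PSMB8, chr16:67936852-67936881 (minus strand as printed) for PSMB10, chr14:24136189-24136218 (minus strand as printed) for PSME1, chr14:24146619-24146648 (minus strand as printed) for PSME2 and chr6:32853819-32853848 (plus strand as printed) for TAP1. The match ended 12 bases before the start of PSMB10 and 19 bases before that of PSME2, spanned the start of PSMB8, and lay 6 to 15 bases inside the transcript of PSME1. Of all 35116 promoter windows, searched on both strands, 3.57% held GAAANNGAAA and 0.0997% held GAAAGCGAAA. Counted by gene symbol, with any window of a symbol allowed, the shares were 4.38% and 0.125% of 27305 symbols.

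PSMB9 had no match in its own window. Its start and that of TAP1 are separated by 487 bases and point away from each other, and the TAP1 window holds a pair of overlapping matches in a stretch of 16 bases, 119 bases from the TAP1 start and 354 bases from the PSMB9 start. The 250 bases before the TAP1 start (chr6:32853705-32853954, minus strand) are printed because they form the TAP1 side of this shared promoter, with the matches in capitals, here read on the strand opposite to the site printed above.
TAP1: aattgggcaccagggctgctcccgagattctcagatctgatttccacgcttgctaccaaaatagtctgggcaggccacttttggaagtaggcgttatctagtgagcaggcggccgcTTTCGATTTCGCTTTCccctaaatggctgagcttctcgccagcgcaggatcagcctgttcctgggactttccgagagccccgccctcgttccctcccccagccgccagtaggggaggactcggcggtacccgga
The 250 bases before the start of PSMB10 (chr16:67936851-67937100, minus strand) and PSME2 (chr14:24146611-24146860, minus strand) are given to show how close to the start the match (in capitals) lies in these members.
PSMB10: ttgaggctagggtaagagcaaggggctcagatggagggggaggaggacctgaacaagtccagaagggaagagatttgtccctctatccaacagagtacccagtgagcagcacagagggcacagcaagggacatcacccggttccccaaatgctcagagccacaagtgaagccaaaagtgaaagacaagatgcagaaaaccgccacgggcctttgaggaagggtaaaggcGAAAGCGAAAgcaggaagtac
PSME2: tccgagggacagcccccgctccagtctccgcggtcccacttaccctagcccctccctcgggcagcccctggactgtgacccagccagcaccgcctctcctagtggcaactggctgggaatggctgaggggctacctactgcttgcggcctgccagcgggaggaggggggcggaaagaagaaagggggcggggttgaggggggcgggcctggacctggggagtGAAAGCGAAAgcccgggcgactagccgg
TTCNNNGAA, a palindromic STAT element that reads the same on both strands and is held by 7.66% of windows, matched in the downstream PSMB8 window and in none of the windows of PSMB9, PSMB10, PSME1 and PSME2. PSMB5, the constitutive counterpart of PSMB8, had no GAAANNGAAA in either of its windows. Its window at the start 23034900 held TTCNNNGAA at 2 places, and the TAP1 window at the start 32852761 held it as well. Windows of PSMB6 and PSMB7 were not available, so those constitutive counterparts were not searched. A match is a run of letters and not a shown binding site, and the absence of one says nothing of the factor.

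**Figure D1:**
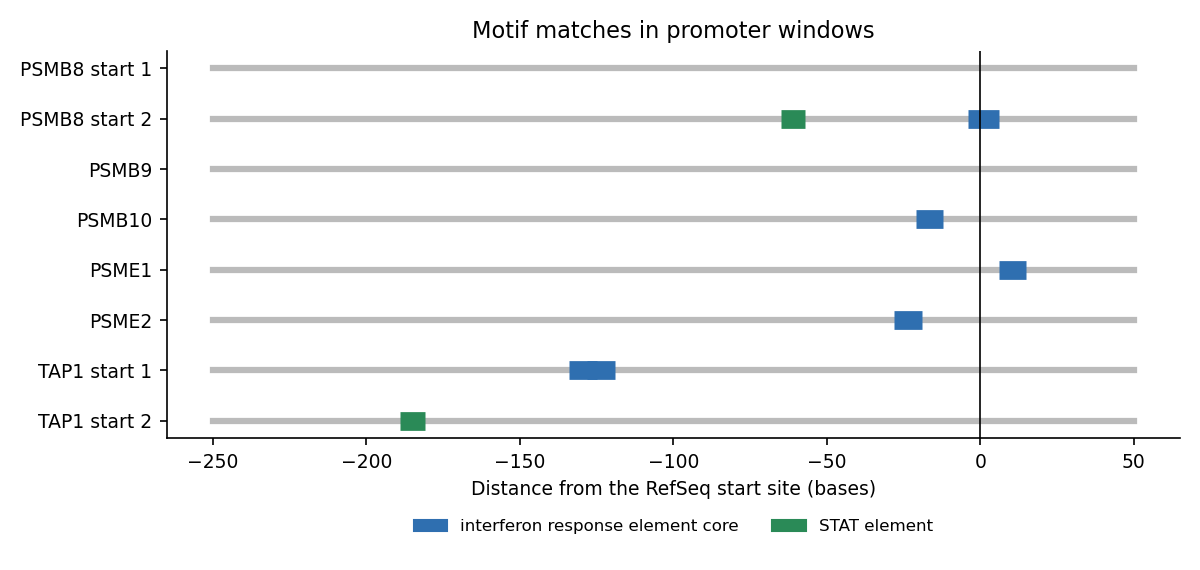
Motif matches in RefSeq promoter windows, drawn by distance in bases from each start site (x axis), with 1 line per window and TAP1 and PSMB8 having a pair of starts each. The interferon response element core (blue) sits within 28 bases of the start in PSMB8 (downstream start), PSMB10, PSME1 and PSME2, and between 119 and 134 bases before the first TAP1 start.

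With the miR-23b antimir, the catalytic subunits encoded in the class II region of the major histocompatibility complex were the members that stood highest above their control. PSMB9 measured 13.2 FPKM with the antimir against 5.51 in the control, a difference of 1.16 and a plain ratio of 2.39. PSMB8 measured 32.6 against 17.01 FPKM, a difference of 0.94 and a ratio of 1.92. These were the 2 members at least 1.5-fold higher, 0 were lower, and all 5 lay above 0. Over all 14190 genes, 5.07% were at least 1.5-fold higher, 2.9% lower and 7.97% either; over the 11060 protein-coding genes these shares were 1.75%, 0.886% and 2.63%. PSMB9 ranked 40 and PSMB8 69 from the top among protein-coding genes. How far a pair of untreated cultures would differ was not measured.

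The other members were higher by less. PSME2, the PA28 beta chain, measured 252 FPKM against 179.5 (0.52, ratio 1.40), and ranked 247 among protein-coding genes. PSMB10, the inducible counterpart of PSMB7, was at 28.99 against 24.04 FPKM (0.30). PSME1, the PA28 alpha chain, was at 248 against 231 FPKM (0.14). The median difference of the 5 members was 0.52, against 0 over all genes by the centring. The differences of single members ran from 0.14 for PSME1 to 1.16 for PSMB9.

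With the miR-23b precursor, no member passed 1.5-fold. PSMB9 was again the member farthest from 0, with 5.03 FPKM against 6.68 in the control (-0.37). PSMB8 was at 17.5 against 19.6 FPKM (-0.18) and PSME2 at 210.1 against 222 (-0.10). PSME1 was at 286 against 289.5 FPKM (-0.041), a difference that turned to 0.033 when only protein-coding transcripts were summed, an alternative chosen after seeing the data. PSMB10 was at 27.1 against 26.3 FPKM (0.021). The median was -0.10, with PSMB10 as the 1 member above 0. Over all 16982 genes, 3.36% were at least 1.5-fold higher, 3.32% lower and 6.68% either; over the 11346 protein-coding genes these shares were 0.529%, 0.617% and 1.15%. PSMB9 ranked 310 from the lowest among protein-coding genes. The precursor and antimir comparisons have separate controls, and the opposite signs of PSMB8, PSMB9, PSME1 and PSME2 rest on 1 library pair in each.

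**Figure D2:**
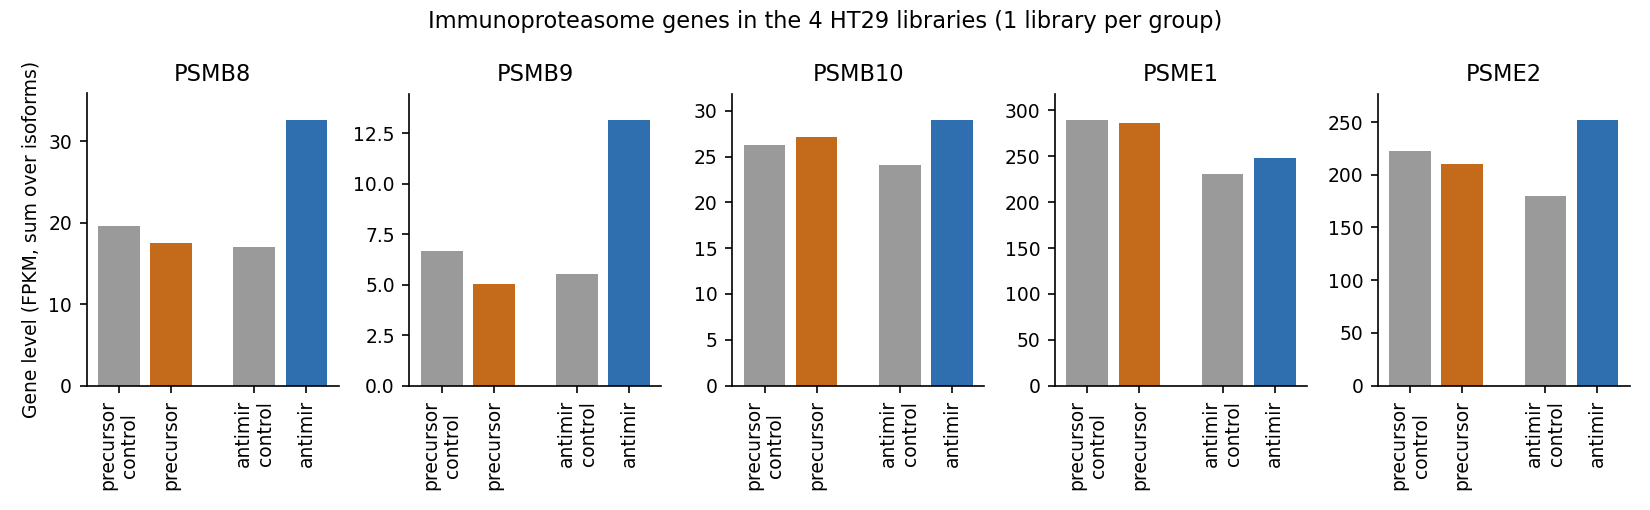
Gene level in FPKM (y axis, from 0, a separate scale for each gene) of the 5 members in the 4 libraries, with each treated library (coloured bar) beside its own control (grey bar), and no error bars because each group has 1 library. PSMB9 stood at 13.2 FPKM in the antimir library against 5.51 in its control, while PSME1 was at 248 against 231.

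The inducible catalytic subunits can be set against the constitutive subunits they replace, since FPKM are scaled to length. In the antimir library PSMB8 stood at 26.8% of the FPKM of PSMB5, against 12.4% in the control. PSMB9 stood at 25.6% of PSMB6 against 9.28%, and PSMB10 at 21.2% of PSMB7 against 17.3%. The 3 inducible genes together came to 24.1% of the 3 constitutive ones with the antimir against 13.9% without. In the precursor library these percentages were 10.99% of PSMB5 against 13.8% for PSMB8, 7.82% of PSMB6 against 10.9% for PSMB9, and 13.9% of PSMB7 against 14.7% for PSMB10. In each of the 4 libraries the constitutive transcript was thus the more abundant of each pair. These are ratios of transcript levels and do not give the composition of assembled proteasomes.

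The constitutive genes of these ratios were read in the same way. PSMB5 was at 121 FPKM with the antimir against 137 (-0.14), PSMB6 at 51.3 against 59.4 (-0.17) and PSMB7 at 137 against 139 (0.016). In the precursor library all 3 lay above 0, with differences of 0.14 for PSMB5, 0.046 for PSMB6 and 0.10 for PSMB7. Within PA28, the ratio of PSME1 to PSME2 was 0.984 with the antimir against 1.28 in the control, and 1.36 with the precursor against 1.30. These ratios sum all isoforms, and the order of the genes changes with protein-coding forms alone. Coding PSME1 and PSME2 were then at 65.4 and 106 FPKM with the precursor, and 62.2 and 119 in its control. With the antimir they were at 155 and 125 FPKM, and in its control at 150 and 95.7. PSME3, the nuclear PA28 gamma activator that is not part of the immunoproteasome, was at 61.3 against 67.4 FPKM with the antimir (-0.096) and 77.9 against 76.75 with the precursor (-0.00075).

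**Figure D3:**
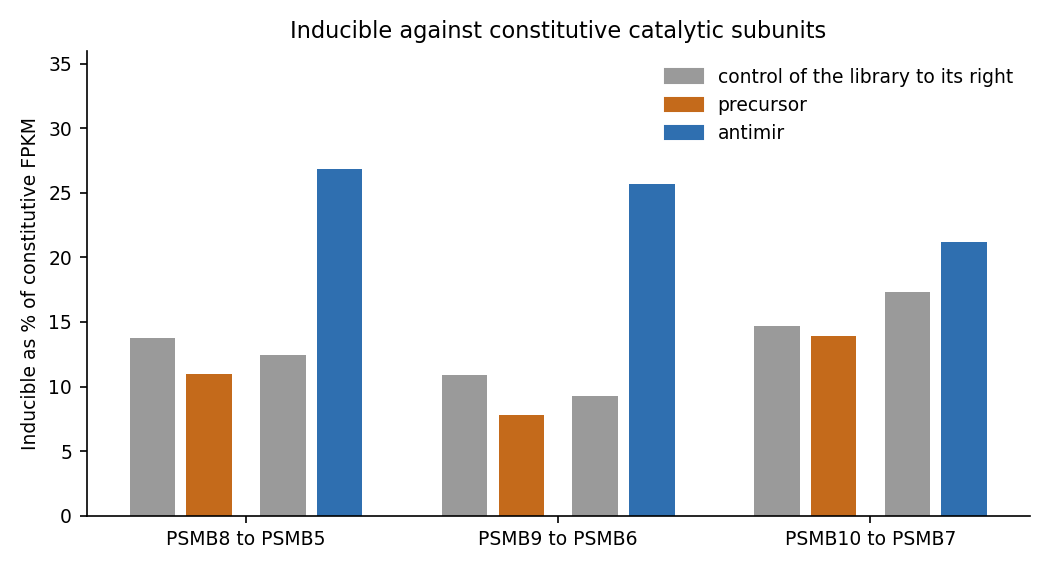
FPKM of each inducible catalytic subunit as a percentage of the FPKM of the constitutive subunit it replaces (y axis, from 0), in the 4 libraries, 1 bar per library and each grey control beside its treated library. PSMB8 at 26.8% of PSMB5 in the antimir library is the tallest bar, against 12.4% in its control.

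Of the listed genes of the constitutive core, the regulatory particle, the other activators and inhibitor and the assembly chaperones, those above the filter were all within 1.5-fold in both comparisons. Of the 14 constitutive core genes 13 were measured above the filter, with a median difference of 0.012 in the antimir library and 0.046 in the precursor library. PSMA5, an alpha-ring subunit, was the farthest from 0 with the antimir, at 323 against 241 FPKM (0.46). PSMA3 was at 169 against 142 (0.29). PSMA6 stood at 1.18 against 0.220 FPKM, below the filter; with its failed isoforms kept it was at 137 against 114 FPKM. The 18 genes of the regulatory particle, the cap that binds and unfolds ubiquitinated proteins, had medians of -0.0042 with the antimir and 0.0090 with the precursor, and ADRM1, a ubiquitin receptor, lay farthest from 0 at 59.7 against 74.2 FPKM with the antimir (-0.27). PSME3, PSME4 and the inhibitor PSMF1 had a median of -0.015 with the antimir and of -0.00075 with the precursor. Of the 5 assembly chaperones, 4 lay above 0 with the antimir and all 5 below 0 with the precursor, with medians of 0.089 and -0.043. POMP, the chaperone that helps the inducible subunits mature, was at 248 against 209 FPKM with the antimir (0.29) and 249.0 against 253 with the precursor (-0.043).

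**Figure D4:**
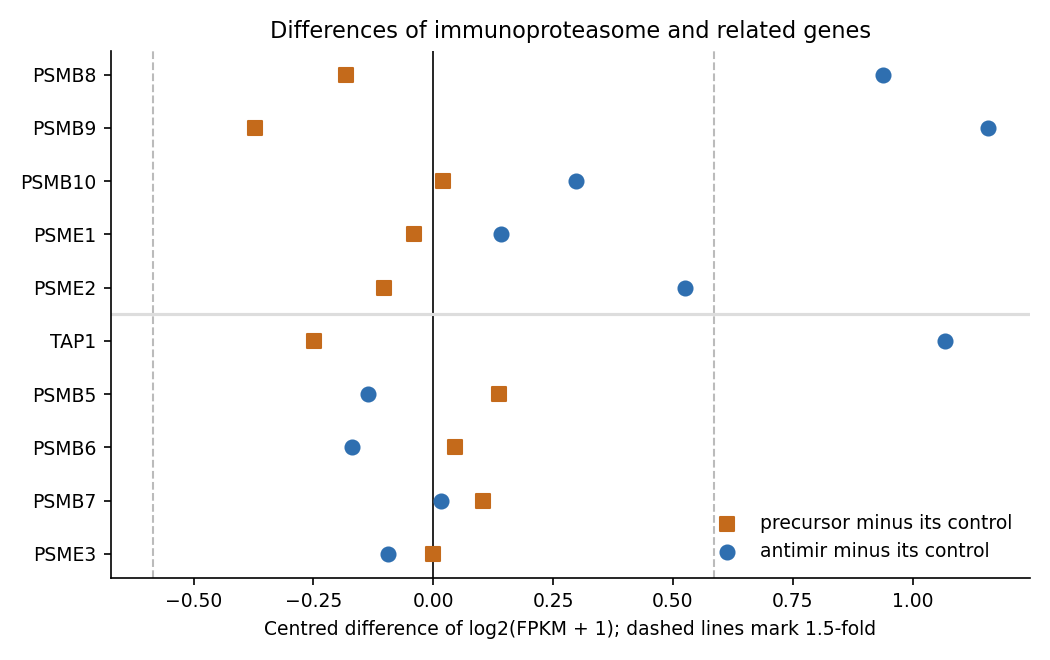
Centred difference of log2(FPKM + 1), treated minus control (x axis), for the 5 members above the grey line and for TAP1, the constitutive counterparts and PSME3 below it, with squares for the precursor and circles for the antimir and dashed lines at 1.5-fold. PSMB8, PSMB9 and TAP1 lie past 1.5-fold with the antimir (0.94, 1.16 and 1.07), and no gene shown lies past it with the precursor.

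The isoforms behind these sums were examined in turn. The 5 genes had 39 transcripts in the tables, of which 9 were listed at 0 in both libraries of the precursor table and 7 in both of the antimir table. The authors had tested 27 of them for the antimir, of which 23 were higher in the antimir library and 4 lower, all 4 belonging to PSME1. For the precursor they had tested 26, with 10 higher and 16 lower. PSME2 had 12 tested transcripts, all 12 of them higher with the antimir but 6 higher and 6 lower with the precursor. Transcripts of 1 gene share reads, so these are not independent.

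PSMB8 has a pair of start sites in RefSeq. ENST00000374882, a protein-coding transcript whose first base is at 32844047 on chromosome 6 in GRCh38 (GENCODE 29), measured 31.9 FPKM with the antimir against 16.4 and held 97.8% and 96.4% of the PSMB8 FPKM. It starts at the downstream site, the window that holds GAAAGCGAAA. ENST00000374881, which starts upstream at 32844703, was listed at 0 in all 4 libraries. The upstream retained-intron form ENST00000484003, with its first base at 32844651, was at 0.729 against 0.442 FPKM in the antimir table and 1.70 against 1.99 in the precursor table. In the precursor table ENST00000374882 was at 15.6 against 17.6 FPKM. In the authors' deposited table ENST00000374882 was called higher in the antimir library (p-value 7.07e-05, q-value 0.0228), the 1 call among the 27 member transcripts tested there. The authors' deposited table called 0.243% of tested transcripts higher in that library and 0.171% lower.

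For PSMB9, ENST00000374859 was at 7.42 FPKM with the antimir and 3.03 in its control, and ENST00000414474, a protein-coding form, at 4.33 against 1.92. All 3 tested PSMB9 transcripts were higher with the antimir, and all 3 lower with the precursor, where ENST00000374859 was at 1.62 against 2.17 FPKM and ENST00000414474 at 3.22 against 3.91. In the authors' deposited table neither was called in the antimir library, with q-values of 1.00 for both. PSMB10 had 1 transcript, ENST00000358514, so that its gene value is the value of that transcript.

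PSME1 and PSME2 were split over many transcripts, and not in the same way in both tables. ENST00000206451, the most abundant protein-coding PSME1 form, held 58.5% of PSME1 FPKM with the antimir and 61.0% without it, but 20.6% with the precursor and 18.2% without it. ENST00000470718, a non-coding processed transcript, was at 138 against 144 FPKM in the precursor table and 73.4 against 66.9 in the antimir table. Protein-coding forms together held between 21.5% and 22.9% of PSME1 FPKM in the precursor table and between 62.7% and 64.9% in the antimir table. The libraries of a table resembled each other and the tables differed, so single PSME1 isoforms are given with this split in view. For PSME2, the protein-coding forms ENST00000560410 and ENST00000559056 were at 65.3 against 51.1 and 59.4 against 44.6 FPKM with the antimir. ENST00000560370, a form listed as a target of nonsense-mediated decay, was at 57.9 against 34.5 FPKM there. In the authors' deposited table none of the PSME1 and PSME2 transcripts was called with the antimir.

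With the precursor, 2 of the 26 tested member transcripts were called lower and 0 higher in the authors' deposited table. The authors' deposited table called 6.66% of all tested transcripts lower there and 6.91% higher. Both calls fell on minor forms. ENST00000382708 of PSME1 was at 0.0277 against 1.76 FPKM (q-value 0.0246 in the authors' deposited table), and ENST00000559453, a retained-intron form of PSME2, was at 0.871 against 1.84 (q-value 0.00267 in the authors' deposited table). The abundant forms of both genes were not called.

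**Figure D5:**
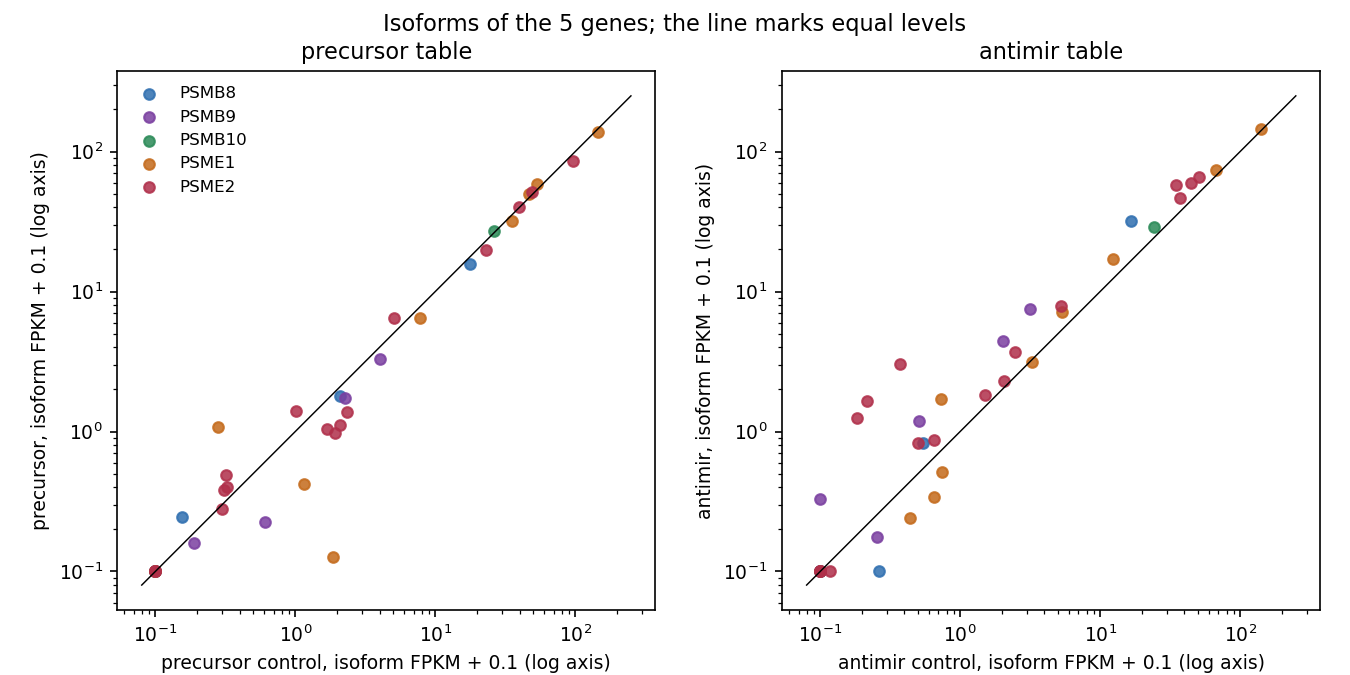
FPKM of each transcript of the 5 genes in the treated library (y axis) against its control (x axis), both with 0.1 added and on log axes, 1 point per transcript coloured by gene, precursor table left and antimir table right. The tested transcripts of PSMB8, PSMB9 and PSME2 lie above the line of equal levels in the antimir table, where 23 of 27 tested transcripts were higher. Untested transcripts of these genes lie above, on or below that line. In the precursor table the abundant transcripts lie close to it.

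The position of the members in the genome was also considered. In hg19 the tables give PSMB8 and PSMB9 a joint locus with TAP1, chromosome 6 from 32808494 to 32847625. TAP1, the other gene of the shared promoter, was at 10.7 FPKM with the antimir against 4.74 (1.07) and at 4.49 against 5.42 with the precursor (-0.25). TAP2, in the next locus, was at 45.99 against 31.2 FPKM with the antimir (0.58) and 35.9 against 32.6 with the precursor (0.12). XXbac-BPG246D15.8, now named PSMB8-AS1 and read from the strand opposite PSMB8, was at 1.47 against 0.793 FPKM with the antimir (0.50). HLA-Z, a short pseudogene within 25 kb, was at 160 FPKM with the antimir and listed at 0 in its control, and at 57.7 against 72.9 with the precursor. Its entry runs only from 32864193 to 32864267, and on so short an entry a few fragments can give a large FPKM. Whether the counting used the strand is not given in the sources used here, so reads of PSMB8 and its antisense gene cannot be told apart with certainty.

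PSME1 and PSME2 lie beside each other on chromosome 14, PSME1 with FAM158A from 24605367 to 24610797 and PSME2 with RNF31 and IRF9 from 24612574 to 24636611. IRF9, the DNA-binding part of the complex that type I interferon activates, was at 103 against 60.8 FPKM with the antimir (0.79), and RNF31, a ubiquitin ligase subunit, at 23.0 against 18.1 (0.36). FAM158A was at 12.4 against 10.2 (0.29). REC8, within 25 kb, was at 5.90 against 3.16 FPKM (0.77). Other neighbours lay on the other side of 0 with the antimir, such as PCK2 (-0.18), DCAF11 (-0.097), TM9SF1 (-0.37), GMPR2 (-0.18), IPO4 (-0.14), CHMP4A (-0.18) and the read-through NEDD8-MDP1 (-0.39). NEDD8 (0.12), MDP1 (0.27) and ENSG00000254692 (0.87) lay above it. PSMB10 has a locus of its own on chromosome 16, from 67968405 to 67970990, and its measured neighbours SLC12A4 (-0.040) and PSKH1 (-0.17) were below 0 with the antimir.

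PSME2 has processed pseudogenes whose reads may not be separable from its own. PSME2P2 was at 7.63 FPKM with the antimir and 2.196 in its control (1.47), and at 31.0 against 18.1 with the precursor (0.72), so it was past 1.5-fold in both comparisons while PSME2 was in neither. PSME2P1 (ENSG00000238000) was at 3.38 against 1.77 FPKM with the antimir (0.70) and 2.70 against 2.28 with the precursor (0.15). The other 4 listed PSME2 pseudogenes were below 1 FPKM in all 4 libraries. How the authors assigned reads that match several places is not given in the sources used here, so the PSME2 values are uncertain in that respect.

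Genes of the pathways around the immunoproteasome were taken from lists drawn up with earlier results of these data known. For the counts in this and the following paragraphs, the shares at least 1.5-fold higher with the antimir were 5.07% of all genes and 1.75% of protein-coding genes. Those at least 1.5-fold lower with the precursor were 3.32% and 0.617%. Of 15 genes of class I peptide loading, 13 lay above 0 with the antimir and 6 were at least 1.5-fold higher, with a median of 0.33. They included TAP1. B2M, the light chain of class I molecules, was at 4966 against 2536 FPKM (1.01), HLA-B at 30.1 against 15.1 (0.99) and HLA-F at 11.3 against 4.20 (1.28). With the precursor the median of that list was 0.085 and 1 gene, TAPBPL, a chaperone related to tapasin, was past 1.5-fold lower (3.77 against 6.74 FPKM, -0.72). TAPBPL, named after its values were seen, was at 6.76 against 4.06 FPKM with the antimir (0.66).

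Of the signalling genes and regulators of class I and immunoproteasome genes, 14 passed the filter in each comparison. With the antimir 4 of them were at least 1.5-fold higher and 0 lower, and with the precursor 0 passed 1.5-fold either way. NLRC5, the transactivator of class I genes, was at 2.47 against 0.885 FPKM with the antimir (0.92) and IRF7 at 48.1 against 30.6 (0.67). In that comparison NLRC5 passed the filter through the antimir library alone. IRF1, the factor best known for driving PSMB9 and TAP1, was at 27.5 against 24.7 with the antimir (0.19) and 37.7 against 37.2 with the precursor (-0.0015). The medians of the list were 0.051 and -0.060.

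Genes best known as type I interferon targets were higher with the antimir as well. Of 18 past the filter, all 18 were at least 1.5-fold higher with the antimir, with a median of 1.68 and a lowest value of 0.98, beside 1.16 for PSMB9 and 0.94 for PSMB8. IFI44L was at 81.1 against 9.64 FPKM (2.99). RSAD2, at 3.37 against 0.683 FPKM, passed the filter there through the antimir library alone. With the precursor 14 of 18 lay below 0, with a median of -0.27, and 2 were past 1.5-fold lower, IFI44L and XAF1, the latter named after its values were seen. Genes best known as interferon-gamma targets were mostly low. Of 14, 8 passed the filter with the antimir and 3 of them were at least 1.5-fold higher, with a median of 0.32. GBP4 was at 3.14 against 1.31 FPKM (0.88), GBP1 at 4.35 against 2.08 (0.83) and CXCL10 at 1.649 against 0.642 (0.73). CXCL10 passed the filter through the antimir library alone, and the count and median include it. Of the 8, 6 lay above 0 and 2 below, WARS at 60.5 against 69.0 FPKM (-0.15) and ICAM1 at 1.12 against 1.47 (-0.18). GBP2 was at 20.4 against 20.9 FPKM (0.0083). The FPKM of the whole list summed to 98.8 with the antimir and 102 in its control. With the precursor 7 of these genes passed the filter, with a median of 0.094, and 0 were past 1.5-fold.

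The series looked for mRNA targets of miR-23b, so 1 annotated 3' UTR of each member was searched for the seed site of that microRNA. The mature strand, from RefSeq and with its seed (bases 2 to 8) in capitals, is printed because the members' 3' UTRs were searched for its complement.
miR-23b-3p: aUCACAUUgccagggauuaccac
The complementary site, AATGTGA, was absent from the longest annotated 3' UTR (GENCODE 29) of each of the 5 members. Those UTRs ran from 47 bases in PSME2 to 323 in PSME1, short beside the median of 1062 bases over 19569 genes, of which 18% had at least 1 site. They are not the UTRs of the abundant forms. For PSMB8 the UTR was that of ENST00000395339, listed at 0 in all 4 libraries, and for PSMB9 that of ENST00000395330, at most 0.229 FPKM. For PSME1 it was that of ENST00000382708, at most 3.16 FPKM. Those used for PSMB10 and PSME2, ENST00000574576 and ENST00000615264, were not among the measured transcripts. Absence of AATGTGA there says nothing of sites in the abundant forms, elsewhere in the transcripts or of other seeds.

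The genes with the most similar pair of differences, over 2 comparisons and 4 libraries, were found by their distance to the members' median pair (-0.10 with the precursor, 0.52 with the antimir) among 5113 genes with a mean of at least 20 FPKM in both tables. PSME2 was the median member in both comparisons, so this pair is that of PSME2. PSMB9, with means of 5.86 and 9.33 FPKM, and PSMB8, with 18.5 in the precursor table, were themselves below that minimum of 20. The 8 nearest were RAD50, MDK, FOXN2, RB1CC1, CDC42EP5, GSDMB, GLT8D1 and ZMYND8, at distances from 0.027 to 0.069. RAD50 was at 45.7 against 32.2 FPKM with the antimir (0.53) and 62.2 against 64.6 with the precursor (-0.076). MDK was at 72.1 against 50.2 FPKM (0.55) and 77.0 against 80.5 (-0.085). With so few points such likeness is a description and no sign of a shared role.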

How the data were processed

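The submitters' processing notes name bcl2fastq 1.8.3, TopHat2 2.0.11, Cufflinks 2.2.0, Cuffdiff and the build hg19, while annotation and settings are not given in the sources used here. Deposited by the authors were 2 tables of FPKM per isoform, each with 1 treated library and the library named with a final N, taken as its control. Per the file headers, the authors' p-value and q-value for each isoform compare 2 libraries and not 2 conditions.

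A gene's FPKM was summed over its transcripts without failed status, and whole-locus entries were used only for genes with no transcript. log2(FPKM + 1) was compared within a table for genes with a mean of at least 1 FPKM (16982 in the precursor table, 11346 protein-coding; 14190 and 11060 in the antimir table). The median removed was 0.022 and -0.038. Loci in the tables can span several genes. Gene and transcript types, UTRs and start sites came from GENCODE 29 (GRCh38), matched by identifier (87.6% of genes); promoters and the microRNA came from RefSeq. The differences were checked on the antimir control values with known folds put in and no noise. The gene sums were checked on a small made-up example. Both check the arithmetic only, and the sequence searches were not tested in this way. Calculations used Python 3.11.15 with pandas 2.3.3.

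The members and gene lists were chosen with earlier results of these data known. Genes named are the 5 members, up to 4 per list with the largest differences (not all are given), fixed counterparts and regulators, neighbours within 25 kb, related symbols and the 8 most alike genes. The promoter and seed searches were added after seeing the data. A regulator named by that rule is not reported here.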

Additional observations from a re-analysis of the deposited data

Results flagged for a closer look

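The whole-locus entries of PSMB8 and PSMB9, which the gene sums leave out, were above their control in the antimir library. That of PSMB8 was at 0.195 FPKM against 0.0897 (ratio 2.18), and that of PSMB9 at 0.0821 against 0.0220 (ratio 3.73). Both were below 0.2 FPKM and were not tested by the authors. The whole-locus entries of PSMB10, PSME1 and PSME2 had ratios of 0.971, 1.12 and 0.991 there.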

How the results depend on the processing

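The members' calls were the same under each alternative tried: 2 of 5 past 1.5-fold with the antimir (PSMB8 and PSMB9) and 0 with the precursor, under other pseudocounts, filters and isoform choices, without centring, and with protein-coding transcripts only, the last chosen after seeing the data. The median of the members ran from 0.38 (most abundant isoform only) to 0.53 with the antimir and from -0.20 to -0.080 with the precursor. PSMB9 with the antimir ran from 0.81 with a pseudocount of 5 to 1.28 with 0.1. The number of genes past 1.5-fold moved both ways, from 185 to 1492 around 1135 with the precursor and from 380 to 1656 around 1131 with the antimir. With the precursor it was 625 at a mean FPKM of at least 5, 185 with protein-coding transcripts only, 1492 with a pseudocount of 0.1, 1491 with no filter and 1422 with the most abundant isoform only. With the antimir it was 1534, 1656 and 1543 under the last 3 of these, 675 with a pseudocount of 5, 622 at a mean FPKM of at least 5 and 380 with protein-coding transcripts only. Fewer genes enter under the stricter filter and the coding set, and a larger pseudocount shrinks the differences of low genes. No replicate could be left out, and no paired analysis was possible because each group has 1 library.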

Other observations

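Other genes whose promoter window holds GAAAGCGAAA, a run of letters singled out after the sequences of the members and of TAP1 had been read, were described in the same way. There were 30 such symbols beside the members, of which 3 (TAP1, RNF31 and PSMB8-AS1) have a window that overlaps a member's. TAP1 served to define the run and is left out of the counts. With the antimir 18 others passed the filter, and 2 of them were at least 1.5-fold higher, beside 1.76% of all 9479 genes with a window. They were PARP14 at 123 against 58.2 FPKM (1.11) and TNFRSF1B at 4.65 against 0.119 (2.37). TNFRSF1B passed the filter through the antimir library alone, so the count rests in part on a gene let in by its high value. The other 16 carriers were not past 1.5-fold. Among them, and named after their values were seen, MYD88, an adaptor of innate receptors, was at 18.6 against 18.1 FPKM (0.078), and PSMG4, a proteasome assembly chaperone, at 31.5 against 32.7 (-0.014). With the precursor 16 passed the filter and 0 were past 1.5-fold, beside 0.515% of all 9704 genes with a window at least 1.5-fold higher.

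For the wider core GAAANNGAAA, which includes GAAAGCGAAA, 357 genes other than the members and TAP1 passed the filter with the antimir. Of them 36 (10.1%) were at least 1.5-fold higher and 2 lower, with a median of 0.039. Over all 9479 genes with a window, 1.76% were at least 1.5-fold higher there. With the precursor 3 of 358 (0.838%) were higher and 4 lower, beside 0.515% higher over all 9704 genes with a window.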
